A study of Mus musculus with 9 samples.

Results

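The genes described here are 10 genes of the oxygen-sensing pathway of hypoxia-inducible factors (HIFs), measured by RNA sequencing in whole mouse lenses at E16.5 (embryonic day, counted from mating) with and without the transcription factor ATF4. They were chosen by their annotated symbol, as 10 of the 55416 genes counted. All 10 passed the filter on low counts, which left 14903 genes for testing. *Hif1a*, *Epas1* and *Arnt* encode the transcription factors, *Vhl*, *Egln1* and *Egln3* encode the proteins that control the factors' stability, and *Vegfa*, *Bnip3*, *Ndrg1* and *P4ha1* are established target genes.

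The Atf4 null group held 4 libraries from embryos homozygous for the *Atf4tm1Tow* allele, in which a neomycin cassette replaces *Atf4* coding sequence. The wildtype group held 5 libraries from wildtype embryos of the same heterozygous intercrosses. Both groups came from a colony of mixed C57Bl/6 and 129 background. Each library came from the lens pair of a single embryo, with both sexes used, so the spread between libraries includes that between embryos. The null allele is constitutive, so every tissue of these embryos lacked ATF4, not the lens alone, and null fetuses of this line are known to be anemic.

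In cells with ample oxygen, the prolyl hydroxylases PHD2 (*Egln1*) and PHD3 (*Egln3*) mark HIF-1α (*Hif1a*) and HIF-2α (*Epas1*), and the VHL ubiquitin ligase then sends them for degradation. When oxygen is scarce the alpha subunits accumulate, pair with ARNT and bind short DNA elements around the bases ACGTG or GCGTG near their target genes. The control of the alpha subunits is therefore largely at the level of protein, which RNA counts do not measure. The lens has no vessels of its own and lies in a low-oxygen space, fed before birth by a transient network of hyaloid capillaries.

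The libraries held between 8409779 and 8906996 reads assigned to genes in wildtype and between 7440807 and 8696699 in Atf4 null lenses. *Atf4*, the gene removed, stood between 119 and 155 CPM (counts relative to scaled library size) in wildtype and between 0.582 and 10.6 CPM in null libraries, which matches every label. Wildtype library 5 stood apart in holding much RNA of other tissues. Its summed skeletal muscle markers were at 9372 CPM, against 15.9 to 36.2 CPM in the other 4 wildtype and 29.7 to 120 CPM in null libraries, and its mesenchyme markers were at 14305 CPM, against 60.1 to 117 CPM and 236 to 582 CPM. Summed lens fiber markers ran from 62647 to 115459 CPM in wildtype, the lowest being library 5, and from 46176 to 107826 CPM in Atf4 null lenses, with 2 of 10 tested markers called lower and 1 further marker (*Lim2*) at 0 counts in all 9 libraries. *Lim2* is overlapped on its strand by the tested gene *Gm52993*, to which its reads could have been lost or assigned, so that 0 does not show its absence. Lens epithelium markers summed to 1846 to 2509 CPM and to 1216 to 1927 CPM, with 4 of 8 called lower. Of all genes tested, 3.67% were called lower and 2.23% higher. The neural retina markers went the other way, from 117 to 209 CPM in wildtype to 191 to 664 CPM in Atf4 null lenses, with 3 of 9 tested called higher. Macrophage markers (81.9 to 97.1 CPM and 79.5 to 114 CPM) and pigment cell markers (20.2 to 143 CPM and 43.1 to 110 CPM) had no call among the 9 and 4 tested. Without wildtype library 5, when 8.33% of all genes were called, 4 fiber and 2 red blood cell markers were lower in null lenses (2 and 1 with it), and 7 mesenchyme and 2 pigment cell markers were higher (0 and 0 with it). In bulk tissue, fewer cells of a type and less RNA per cell cannot be told apart.

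In wildtype lenses the pathway was transcribed at levels spanning more than an order of magnitude. On a per-length scale (FPKM, scaled counts divided by exon length), *P4ha1* was the highest of the 10 genes at 63.9 FPKM (range 50.2 to 72.2 over 5 libraries), followed by *Vegfa* at 44.3 (39.3 to 51.1) and *Hif1a* at 35.9 (32.1 to 38). *Ndrg1* at 25 FPKM (17.9 to 29.5) and *Epas1* at 21.7 (15.9 to 27.4) came next, then *Bnip3* at 12.6 (9.69 to 15.2), *Egln1* at 10.5 (9.58 to 11) and *Arnt* at 7.88 (7.35 to 8.53). The lowest were *Egln3* at 4.69 FPKM (1.93 to 7.99) and *Vhl* at 4.4 (3.59 to 6.07). Among neighbours in this order, the ranges of *P4ha1* and *Vegfa*, *Ndrg1* and *Epas1*, *Bnip3* and *Egln1*, *Arnt* and *Egln3*, and *Egln3* and *Vhl* overlapped, so their order is not fixed by these libraries. In Atf4 null lenses the mean of *Ndrg1* was 9.84 FPKM, below that of *Egln1* at 10.3, and the mean of *Bnip3* was 5.99 FPKM, below that of *Arnt* at 7.14.

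Loss of ATF4 was accompanied by lower RNA of all 4 target genes. The 3 factors and the 3 genes of oxygen sensing did not pass edgeR's quasi-likelihood test, while DESeq2 called 1 of them, *Hif1a*, lower. In a quasi-likelihood test run in edgeR, with Benjamini-Hochberg adjustment over all genes tested, 4 of the 10 genes passed an adjusted p of 0.05, all lower in Atf4 null lenses. Of all genes tested, 5.90% were called, 3.67% lower and 2.23% higher. The median log2 fold change was -1.05 over the 4 targets, -0.34 over the 3 factors and -0.02 over the 3 sensing genes, beside 0.00 over all genes tested. The libraries of the groups did not overlap for the 4 targets, with every null library below every wildtype library, a pattern found in 5.58% of all genes tested. The 3 factors and 3 sensing genes all had overlapping groups.

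**Figure D1:**
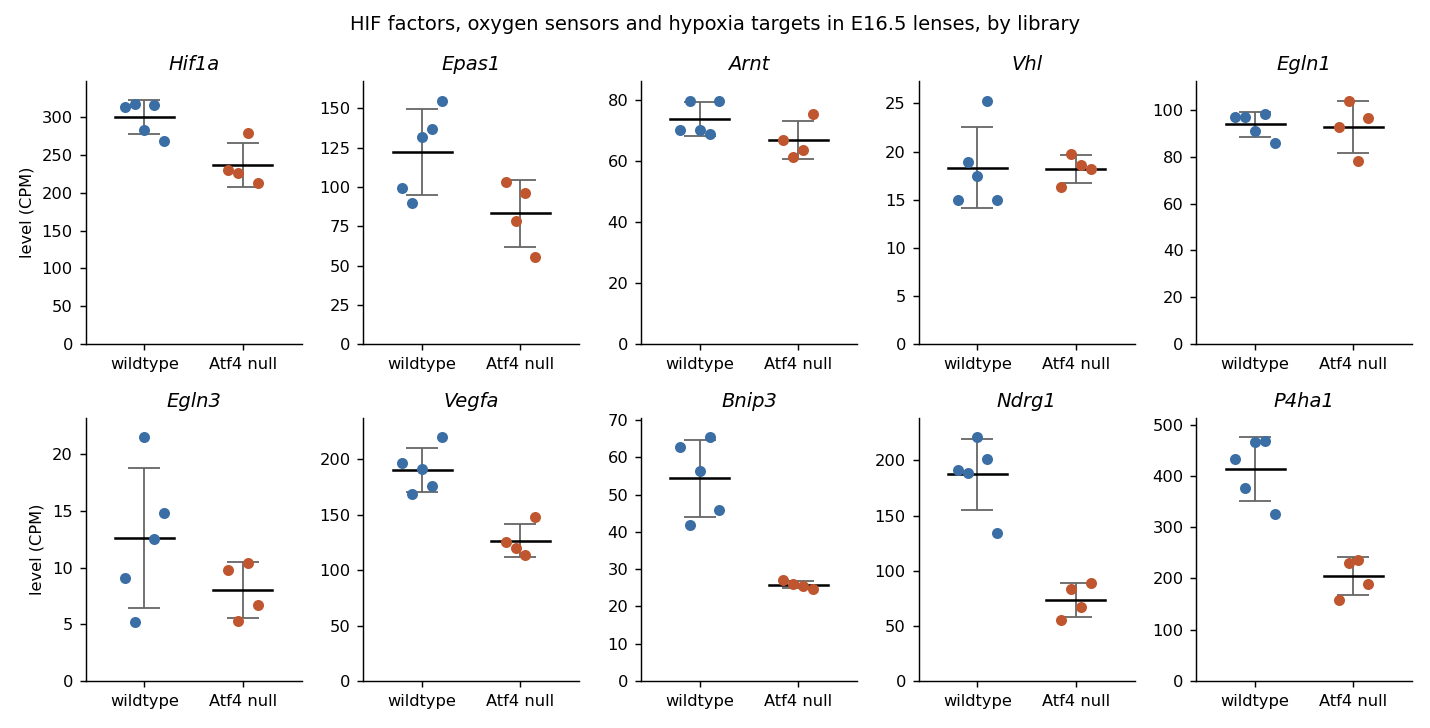
Level of each gene (CPM, scaled by the trimmed mean of M-values, linear axis from 0) in the 5 wildtype (blue) and 4 Atf4 null (orange) libraries, 1 point per library, with the mean (black line) and SD (grey bars). The groups are apart for *Vegfa*, *Bnip3*, *Ndrg1* and *P4ha1* in the lower row and overlap for the other 6 genes.

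*Hif1a* (ENSMUSG00000021109, chr12:73948149-73996321, plus strand of GRCm39) encodes HIF-1α, the oxygen-labile subunit found in nearly all cell types. It was at 313, 317, 283, 316 and 268 CPM in wildtype libraries 1 to 5 and at 230, 226, 279 and 213 CPM in Atf4 null libraries 1 to 4. The null libraries lay below the wildtype ones except for library 3, which was above wildtype library 5. The log2 fold change was -0.34 (SE 0.11, 95% interval -0.58 to -0.09), which did not pass edgeR's quasi-likelihood test (unadjusted p = 0.0115, adjusted p = 0.114). DESeq2, which called 9.37% of all genes, gave an adjusted p of 0.046, and the exact two-sided permutation test of mean log2 CPM gave p = 0.0238. With 1 library left out that p was 0.0536 without Atf4 null library 4 and 0.0571 without wildtype library 1, 2, 3 or 4.

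*Epas1* (ENSMUSG00000024140, chr17:87061087-87140838, plus strand) encodes HIF-2α, which is prominent in vascular endothelium. Its levels were 99.1, 89.6, 132, 137 and 155 CPM in wildtype and 103, 78.3, 96.4 and 55.3 CPM in Atf4 null libraries. The highest null library was above the lowest 2 wildtype libraries, and the wildtype library with muscle RNA was the highest of all 9. The log2 fold change was -0.56 (SE 0.20, 95% interval -0.98 to -0.13) with an adjusted p of 0.126 by edgeR's quasi-likelihood test, and -0.46 (adjusted p = 0.148) without wildtype library 5. Endothelial markers were also fitted lower, though most were not called. Their summed level was 249 to 323 CPM in wildtype libraries 1 to 4, 474 CPM in library 5 and 124 to 282 CPM in Atf4 null lenses. The fitted fold change was below 0 for 10 of 10 markers (median -0.77), as it was for 49.9% of all genes. Of the 10 markers 1, *Egfl7*, was called lower, beside 3.67% of all genes, and 0 without wildtype library 5, beside 4.96%. The ratio of *Epas1* to these summed markers was 0.326 to 0.43 in wildtype and 0.342 to 0.581 in null libraries (difference 0.16 log2 units, exact permutation p = 0.413). The part of endothelial content in the *Epas1* difference was not tested.

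*Arnt* (ENSMUSG00000015522, chr3:95341365-95404551, plus strand) encodes the constitutive partner of both alpha subunits. It averaged 73.7 ± 5.5 CPM across wildtype (SD, n = 5) and 66.7 ± 6.13 CPM across null libraries (SD, n = 4), for a log2 fold change of -0.14 (95% interval -0.40 to 0.11, adjusted p = 0.573 by edgeR's quasi-likelihood test). A processed pseudogene on the same strand, *Gm42672*, overlaps *Arnt*, so reads could be split between them. Among the 3 factors, 2 had an unadjusted p below 0.05, DESeq2 called 1 (*Hif1a*) and edgeR's exact test, which called 7.15% of all genes, called 0. The 2 were *Hif1a* and *Epas1*. For *Epas1* an unadjusted p of 0.0138 by edgeR's quasi-likelihood test became an adjusted p of 0.126. Values below the unadjusted cut were thus common over all genes tested, and the count of 2 is a description.

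The transcripts of the sensing machinery differed by less than the spread between libraries. *Vhl* (ENSMUSG00000033933, chr6:113600920-113608599, plus strand), which encodes the recognition subunit of the ligase, averaged 18.4 ± 4.24 CPM across wildtype (SD, n = 5) and 18.2 ± 1.43 CPM across null libraries (SD, n = 4). Its log2 fold change of -0.01 (adjusted p = 0.99 by edgeR's quasi-likelihood test) had a 95% interval of -0.46 to 0.45. *Egln1* (ENSMUSG00000031987, chr8:125635308-125676865, minus strand), encoding PHD2, the main oxygen sensor, was at 93.9 ± 5.31 CPM (SD, n = 5) and 92.7 ± 10.9 CPM (SD, n = 4), with a log2 fold change of -0.02 (95% interval -0.26 to 0.23, adjusted p = 0.956 by the same edgeR test). These intervals allow differences of at most 0.46 log2 units for *Vhl* and 0.26 for *Egln1* in either direction. The fitted direction of both turned with the scaling, to 0.12 and 0.11 when libraries were scaled by size alone, which moved the median of all genes by about the same amount, to 0.125.

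*Egln3* (ENSMUSG00000035105, chr12:54225767-54250673, minus strand) encodes PHD3, whose own gene is a HIF target in many cells. It was at 9.12, 5.18, 21.5, 12.5 and 14.8 CPM in wildtype and 9.77, 5.28, 10.4 and 6.7 CPM in Atf4 null libraries. The wildtype libraries alone covered a range about as wide as all 9, and the lowest library held 42 counts. The log2 fold change of -0.65 (SE 0.39, 95% interval -1.48 to 0.18, adjusted p = 0.397 by edgeR's quasi-likelihood test) was therefore the least precise of the 10. No sensing gene had an unadjusted p below 0.05, and DESeq2 and edgeR's exact test also called 0 of the 3.

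**Figure D2:**
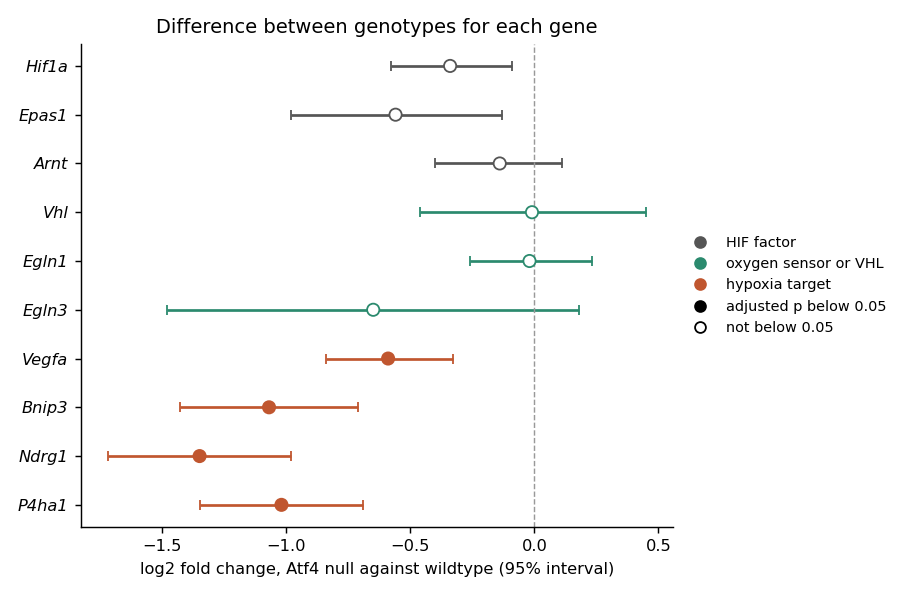
Fitted log2 fold change of each gene in Atf4 null against wildtype lenses (x axis, edgeR quasi-likelihood fit over 9 libraries) with its 95% interval, coloured by role, filled where the adjusted p is below 0.05. The 4 targets lie between -1.35 (*Ndrg1*) and -0.59 (*Vegfa*), and *Vhl* and *Egln1* lie at -0.01 and -0.02.

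*Ndrg1* (ENSMUSG00000005125, chr15:66801166-66841835, minus strand) encodes a cytoplasmic stress-response protein whose transcript rises in hypoxia and on differentiation in many cell types. It was at 191, 189, 221, 201 and 134 CPM in wildtype and at 55, 83.3, 67.4 and 88.5 CPM in Atf4 null libraries. All null libraries were well below the lowest wildtype library, which was library 5. The mean fell from 187 ± 32.2 CPM (SD, n = 5) to 73.6 ± 15.3 CPM (SD, n = 4), 2.55-fold, with a log2 fold change of -1.35 (SE 0.17, adjusted p = 0.000443 by edgeR's quasi-likelihood test). This was the largest change of the 10 genes, and 3.76% of all genes tested had a log2 fold change as low or lower. *Ndrg1* lies on the chromosome of *Atf4*, 13.3 Mb away. Of the 139 tested genes between them 5 were called (3.6%), beside 5.93% of the other genes tested. That share describes the interval and not *Ndrg1*. Strain-derived DNA linked to the null allele was not examined, and its part in the *Ndrg1* difference was not tested.

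*Bnip3* (ENSMUSG00000078566, chr7:138490690-138511253, minus strand) encodes a mitochondrial outer membrane protein that acts as a receptor for mitophagy. It was at 62.8, 41.8, 56.3, 65.4 and 45.9 CPM in wildtype and at 27.1, 26, 25.5 and 24.8 CPM in Atf4 null libraries. The null libraries were close together and the wildtype libraries spread widely above them. The mean fell 2.1-fold, from 54.5 ± 10.3 CPM (SD, n = 5) to 25.9 ± 0.987 CPM (SD, n = 4), with a log2 fold change of -1.07 (SE 0.17, adjusted p = 0.002 by edgeR's quasi-likelihood test).

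*P4ha1* (ENSMUSG00000019916, chr10:59159092-59209126, plus strand) encodes a catalytic subunit of collagen prolyl 4-hydroxylase, which stabilises the collagen triple helix and is not itself an oxygen sensor of the HIF pathway. It was at 433, 377, 466, 468 and 325 CPM in wildtype and at 158, 231, 237 and 190 CPM in Atf4 null libraries. The groups were apart, and library 5 was again the lowest of the wildtype. The mean fell 2.03-fold, from 414 ± 61.8 CPM (SD, n = 5) to 204 ± 37 CPM (SD, n = 4), with a log2 fold change of -1.02 (SE 0.15, adjusted p = 0.00157 by edgeR's quasi-likelihood test).

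*Vegfa* (ENSMUSG00000023951, chr17:46327919-46343309, minus strand) encodes the endothelial growth factor that lens cells secrete and on which the hyaloid capillaries depend. It was at 197, 169, 191, 176 and 220 CPM in wildtype and at 125, 120, 114 and 148 CPM in Atf4 null libraries. Every null library was below every wildtype one, with null library 4 closest to them. The mean fell 1.5-fold, from 191 ± 19.8 CPM (SD, n = 5) to 127 ± 15 CPM (SD, n = 4), with a log2 fold change of -0.59 (SE 0.12, adjusted p = 0.0103 by edgeR's quasi-likelihood test). A log2 fold change this low or lower was found for 14.2% of all genes tested, and the call was lost without Atf4 null library 2 (log2 fold change -0.56, adjusted p = 0.0513) or library 3 (-0.54, adjusted p = 0.0532).

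For each of the 4 targets the exact two-sided permutation test of mean log2 CPM gave p = 0.00794, the smallest that the splits of 9 libraries into 5 and 4 allow. Leaving out wildtype library 5, which was the lowest wildtype library for *Ndrg1* and *P4ha1* and the highest for *Vegfa*, kept all 4 calls, with log2 fold changes of -1.44 for *Ndrg1*, -1.12 for *Bnip3*, -1.09 for *P4ha1* and -0.53 for *Vegfa*, where 4.96% of genes tested were called lower and 8.33% in either direction. *Bnip3*, *Ndrg1* and *P4ha1* were called under all 18 alternative settings and *Vegfa* under 16 of 18. The summed markers of lens fiber, lens epithelium, endothelium, pericytes, red blood cells, retina and mesenchyme (the last against wildtype libraries 1 to 4) differed between the groups by the ranges given here, and their part in the targets' differences was not tested.

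**Figure D3:**
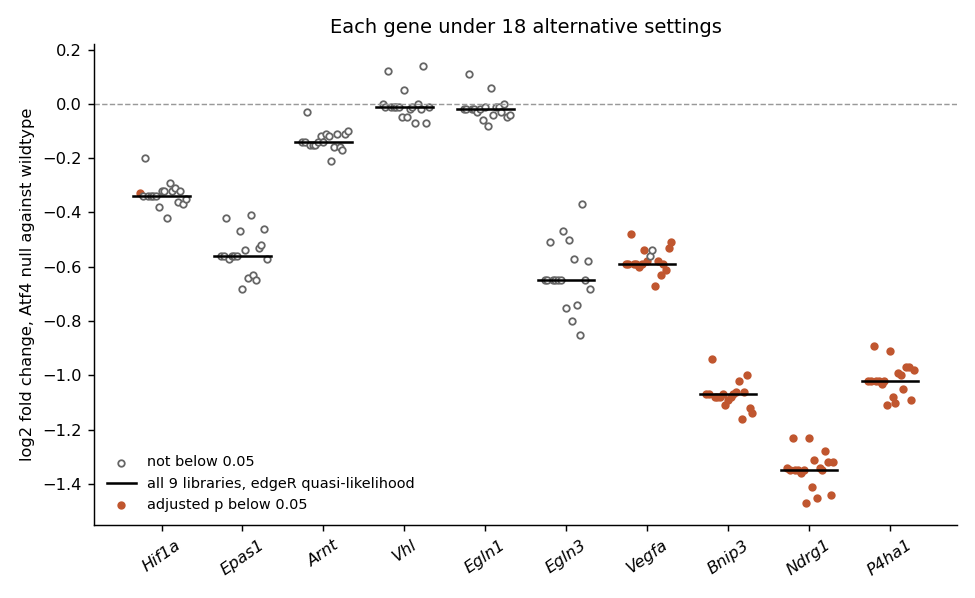
Log2 fold change of each gene (y axis) under 18 alternative settings of the test, scaling, filter and libraries, 1 point per setting, filled where the adjusted p is below 0.05, with the value from all 9 libraries as a line. *Bnip3*, *Ndrg1* and *P4ha1* are filled throughout, *Vegfa* is unfilled in 2 settings, *Hif1a* is filled in 1, and *Vhl* and *Egln1* cross 0.

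The ratio of 2 genes' counts within a library does not depend on how libraries are scaled, so each target was also compared with *Hif1a* and with *Egln1* (ratios chosen after seeing the data, 13 in all, with Benjamini-Hochberg adjustment over them). *Egln1* was taken as a reference after its fold change of -0.02 was seen, so ratios to it largely repeat the targets' own differences and are given as a description. Counting them among the 13 lowers the adjusted p of the ratios to *Hif1a*. The log2 difference of the ratio was -1.33 for *Ndrg1*, -1.03 for *Bnip3*, -1.0 for *P4ha1* and -0.56 for *Vegfa*, with no overlap between the groups. Relative to *Hif1a*, *Ndrg1* (-1.01) and *P4ha1* (-0.68) were lower without overlap (each exact permutation p = 0.00794, adjusted p = 0.0147), and the difference for *Bnip3* was -0.71 (exact permutation p = 0.0159, adjusted p = 0.0229). *Bnip3* was also without overlap, at 0.132 to 0.207 of the *Hif1a* count in wildtype and 0.0914 to 0.118 in null libraries. *Vegfa* was at 0.533 to 0.821 of the *Hif1a* count in wildtype and 0.409 to 0.695 in null libraries, which overlapped (log2 difference -0.25, exact permutation p = 0.238, adjusted p = 0.258). The difference of *Vegfa* relative to *Hif1a* was thus not larger than the spread between libraries.

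**Figure D4:**
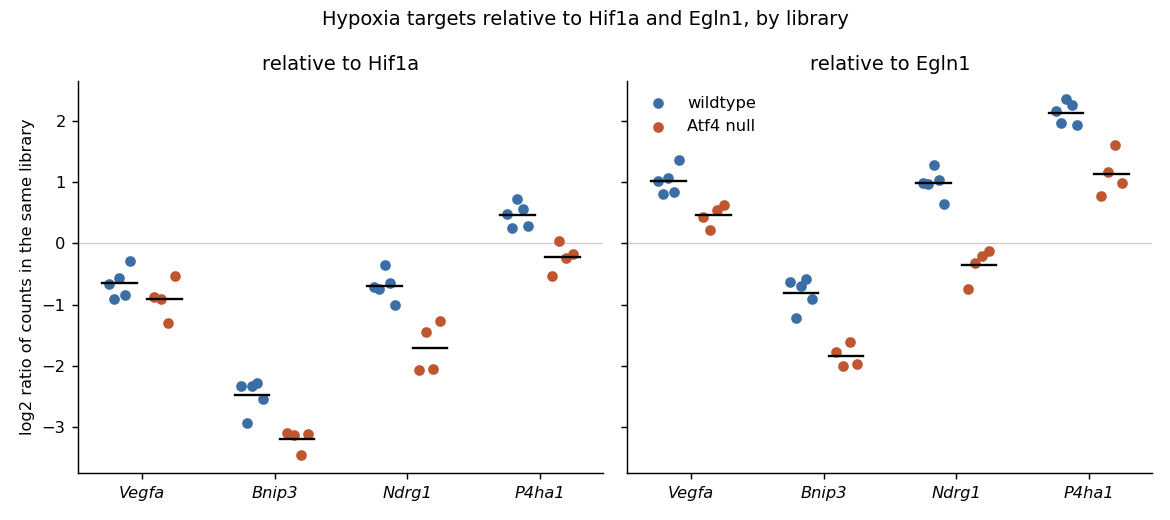
Log2 ratio of each target's count to that of *Hif1a* (left) or *Egln1* (right) in the same library (y axis), 1 point per library, with group means as lines. The groups are apart for every target relative to *Egln1* and for *Bnip3*, *Ndrg1* and *P4ha1* relative to *Hif1a*, while *Vegfa* relative to *Hif1a* overlaps.

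The same was done against a relative of each target. *Ndrg1* fell relative to *Ndrg3*, another member of its family, from 4.15 to 9.77 times the count of *Ndrg3* in wildtype to 1.8 to 3.9 times in null libraries (log2 difference -1.44, exact permutation p = 0.00794, adjusted p = 0.0147). *Bnip3* fell relative to its paralog *Bnip3l*, also a mitophagy receptor, from 0.176 to 0.269 to 0.0901 to 0.162 of its count (log2 difference -0.82, exact permutation p = 0.0159, adjusted p = 0.0229). The ratio of *P4ha1* to *P4ha2*, another catalytic subunit, differed by -0.37 (exact permutation p = 0.167), and that of *Vegfa* to *Vegfb* by -0.38 (exact permutation p = 0.111). Neither was larger than the spread between libraries.

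Stretches upstream of the 4 targets are shown because these are the members whose RNA fell. The sequences are of GRCm39, read 5′ to 3′ on the gene's strand and lying upstream of the annotated gene, with distances counted from the start of its canonical transcript, and capitals mark the HIF core ACGTG or GCGTG on either strand (CACGT or CACGC where it lies on the other strand). They are chr17:46343710-46343789 for *Vegfa* (480 to 401 bases before the start), chr7:138511254-138511373 for *Bnip3* (120 to 1), chr15:66841836-66841962 for *Ndrg1* (160 to 34) and chr10:59158932-59159011 for *P4ha1* (160 to 81), with *P4ha1* on the plus strand and the others on the minus strand.
Vegfa: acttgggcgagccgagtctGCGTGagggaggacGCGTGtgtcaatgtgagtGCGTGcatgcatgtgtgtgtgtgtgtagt
Bnip3: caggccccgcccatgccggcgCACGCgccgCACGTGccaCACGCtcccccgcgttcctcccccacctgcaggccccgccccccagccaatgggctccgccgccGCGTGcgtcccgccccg
Ndrg1: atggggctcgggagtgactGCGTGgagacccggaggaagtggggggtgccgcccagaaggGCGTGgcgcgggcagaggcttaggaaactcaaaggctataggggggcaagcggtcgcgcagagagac
P4ha1: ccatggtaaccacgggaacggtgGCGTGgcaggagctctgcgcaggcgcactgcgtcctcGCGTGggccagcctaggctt

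For 3 genes the canonical transcript starts inside the annotated gene, 33 bases from its outermost start for *Ndrg1*, 36 for *Epas1* and 6421 for *Hif1a*. Over the 500 bases before the canonical start, 9 of the 10 genes held a HIF core on either strand, as did 65.9% of 14862 promoters of tested genes, with *Vhl* the exception. *Bnip3* held 8 matches, counting CACGTG once on each strand, and 0.538% of all promoters held as many or more. *Ndrg1* held 4, of which 1 lies inside the annotated gene (as many or more in 9.9% of promoters), *Vegfa* 3 (20.1%) and *P4ha1* 2 (38.8%), while *Hif1a*, which did not pass edgeR's quasi-likelihood test, also held 3 in a window that lies within its annotated gene, and the median over all promoters was 1. The composite element TGATGNAA, the core of the sites bound by ATF4 with C/EBP partners, was found in 0 of the 10 windows on either strand and in 5.16% of all promoters. A match is a description of the sequence and does not show binding.

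Among 20 glycolytic genes regarded as HIF targets, all tested, 11 were called lower and 0 higher, beside 3.67% of all genes called lower and 2.23% higher. The list was chosen with earlier results of these data known, so the count is a description. The study had already reported glycolysis and gluconeogenesis as an affected pathway from the same libraries. The count was 9 with scaling by library size alone, 13 by DESeq2 and 14 without wildtype library 5, in which the list summed to 3797 CPM, against 4905 to 5673 CPM in the other wildtype and 2679 to 3390 CPM in null libraries. The median log2 fold change was -0.65. The part of the lens fiber and epithelium markers in these differences was not tested. *Aldoc*, an aldolase isozyme, fell from 73.2 ± 21.4 CPM (SD, n = 5) to 7.5 ± 1.71 CPM (SD, n = 4), a log2 fold change of -3.29 (SE 0.26, adjusted p = 2.2e-05 by edgeR's quasi-likelihood test). *Pfkl* (phosphofructokinase) fell by 1.04 on the log2 scale, *Pgk1* (phosphoglycerate kinase) by 0.97, *Gpi1* (glucose phosphate isomerase) by 0.80 and *Tpi1* (triose phosphate isomerase) by 0.76. *Pdk1*, a pyruvate dehydrogenase kinase, fell by 1.19 (adjusted p = 0.00751 by the same edgeR test). *Slc2a1*, which encodes the glucose transporter GLUT1, averaged 758 ± 131 CPM across wildtype (SD, n = 5) and 498 ± 127 CPM across null libraries (SD, n = 4). It had an adjusted p of 0.076, and 0.0113 without wildtype library 5.

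Of 34 other genes regarded as hypoxia targets, 30 were tested, 4 were called lower and 0 higher, beside the same 3.67% and 2.23% of all genes. This list, too, was chosen with earlier results of these data known. The median log2 fold change was -0.44. *Hmox1*, the inducible heme oxygenase, fell from 61.2 ± 10.3 CPM (SD, n = 5) to 13.6 ± 6.45 CPM (SD, n = 4), a log2 fold change of -2.17 (SE 0.29, adjusted p = 0.00069 by edgeR's quasi-likelihood test). *Narf*, a nuclear protein gene, fell by 0.87, *Tfrc*, the transferrin receptor, by 0.74, and *Plod1*, a collagen lysyl hydroxylase, by 0.65 on the log2 scale. *Hmox1* and *Narf* were called in all 18 alternatives and *Plod1* and *Tfrc* in 10 each. Red blood cell markers summed to 231 to 743 CPM in wildtype and 183 to 256 CPM in null lenses, with 1 of 7 tested called lower, and their part in the differences of *Hmox1* and *Tfrc* was not tested. *Bnip3l* had a log2 fold change of -0.22 (adjusted p = 0.508 by the same edgeR test) and *P4ha2* one of -0.56 (adjusted p = 0.3).

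Of 14 further regulators and partners of HIF, all tested, 0 were called by edgeR's quasi-likelihood test, 3 had an unadjusted p below 0.05, and DESeq2 and edgeR's exact test each called 0. Scaling by library size alone called 1, *Hif1an*. The 3 were all fitted higher in null lenses, namely *Hif1an*, the asparaginyl hydroxylase FIH (log2 fold change 0.39, adjusted p = 0.139 by edgeR), *Egln2*, encoding PHD1 (0.40, adjusted p = 0.244), and *Crebbp*, a coactivator (0.26, adjusted p = 0.217). *Egln2* had an unadjusted p of 0.0459 by edgeR's quasi-likelihood test. Its adjusted p of 0.244 shows that such values were common over all genes tested, so the count of 3 is a description. The median of the list was 0.15. *Hif3a*, the remaining alpha subunit, had a log2 fold change of -0.32 (adjusted p = 0.329).

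Among 9 other VEGF ligands and receptors, 8 were tested and 0 called, with 2 at an unadjusted p below 0.05 and 0 called by DESeq2 or edgeR's exact test. These were *Pgf*, a placental growth factor gene at 13 ± 3.44 CPM (SD, n = 5) and 6.46 ± 2.36 CPM (SD, n = 4), with a log2 fold change of -1.0 (adjusted p = 0.121 by edgeR's quasi-likelihood test), and *Flt1*, a VEGF receptor of endothelium, at -0.49 (adjusted p = 0.245). The unadjusted p of *Flt1* was 0.0467 by the same edgeR test. Its adjusted p shows that such values were common over all genes tested, so the count of 2 is a description. *Kdr*, the main signalling receptor, was at -0.28 (adjusted p = 0.564). The coreceptor *Nrp2* depended on wildtype library 5, with a log2 fold change of -0.12 (adjusted p = 0.953) in all libraries and 1.29 (adjusted p = 0.0166) without it. Pericyte markers, which like *Flt1* and *Kdr* belong to vessel cells, summed to 198 to 444 CPM in wildtype and 106 to 210 CPM in null lenses, with 2 of 5 called lower beside 3.67% of all genes, and their part was not tested.

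Of 5 further genes of the NDRG and collagen prolyl 4-hydroxylase families, 1 was called, beside 5.90% of all genes. *P4ha3*, a further catalytic subunit, averaged 14.3 ± 7.56 CPM across wildtype (SD, n = 5) and 2.69 ± 2.42 CPM across null libraries (SD, n = 4), for a log2 fold change of -2.39 (SE 0.65, adjusted p = 0.048 by edgeR's quasi-likelihood test), a call kept in 5 of 18 alternatives and lost without wildtype library 5 (adjusted p = 0.0565). *Ndrg3* (0.14, adjusted p = 0.822) and *P4hb* (-0.35, adjusted p = 0.219), which encodes the partner subunit of P4HA1, did not pass.

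**Figure D5:**
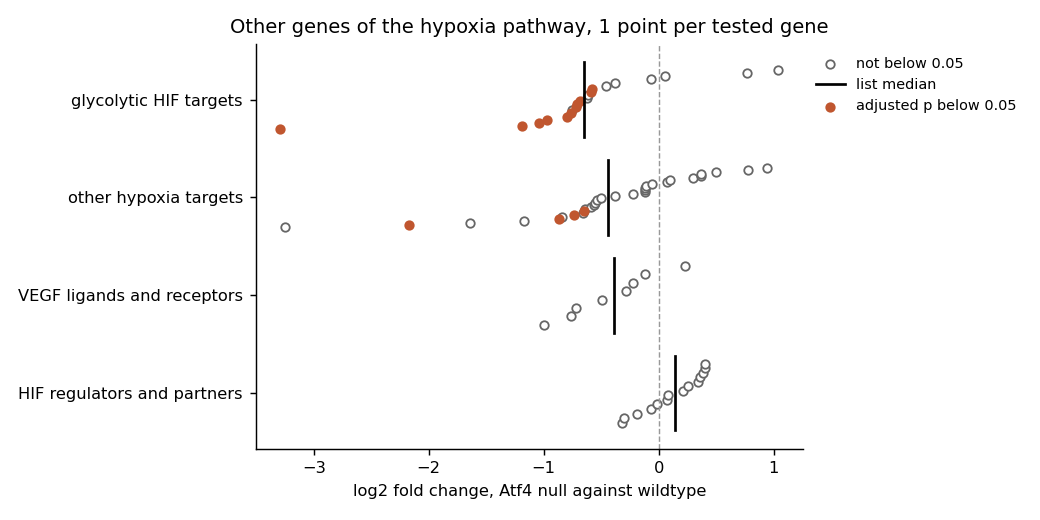
Log2 fold change in Atf4 null against wildtype lenses (x axis) of each tested gene in 4 lists of the hypoxia pathway, 1 point per gene, filled where the adjusted p is below 0.05, with the list median as a line. Medians are -0.65 for glycolytic targets, -0.44 for other targets, -0.39 for VEGF genes and 0.15 for HIF regulators, and the unfilled point at -3.25 is *Lox*, whose wildtype mean rests on library 5.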

How the data were processed

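Whole lenses were sequenced with a stranded total RNA kit. Per the labels and the study's methods, the authors trimmed reads with Trim Galore, aligned them to GRCm39 with HISAT2 and counted them per Ensembl release 104 gene with HTSeq. The deposited values are raw read counts for 55416 genes, not normalized, and the strand setting of the counting is not given in the sources used here. HTSeq summary entries, 44.6 to 47.7% of each file, were left out. Symbols came from GENCODE vM39 (54749 genes matched), which overlaps *Arnt* with 1 tested gene on its strand and no other member with a tested gene.

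Counts were filtered with filterByExpr, scaled by the trimmed mean of M-values and tested with edgeR 4.0.16 (limma 3.58.1, R 4.3.3) over the 9 libraries, with genotype as the only term and Benjamini-Hochberg adjustment. Standard errors and intervals came from the quasi-likelihood F. CPM use scaled library sizes, and log2 CPM in permutation tests of single genes a prior count of 2. Ratios are of raw counts in the same library, without a prior count. All splits were enumerated in each permutation test. Alternatives were DESeq2 1.42.0, edgeR's exact test, library size alone, scaling without crystallins, no filter, a robust fit, a filter of at least 10 counts in every library, the replicate number as a block, each library left out in turn, and, added after seeing the data, wildtype 5 with Atf4 null 1 left out and the count ratios.

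The members and lists were chosen with earlier results of these data known. Named beyond the members were *Atf4*, up to 6 called genes a list by smallest p, and the 3 genes most like *Hif1a*, *Vegfa*, *Bnip3* and *Ndrg1*. *Slc2a1*, *Bnip3l*, *P4ha2*, *Lox*, *Egfl7*, *Lim2* and the uncalled genes of the regulator, VEGF and paralog lists were named after their values were seen. No 2 libraries agreed within sampling noise (lowest chi-square per degree of freedom 7.70 over 36 pairs). The replicate numbers of the wildtype titles and of their files differ, so numbers within wildtype are uncertain, but the genotype is not. The same numbers in the 2 groups were not treated as pairs in the main test, and litter was not modelled.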

Additional observations from a re-analysis of the deposited data

How the results depend on the processing

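*Vegfa* was lost without Atf4 null 2 or 3 (3 members called), DESeq2 added *Hif1a* (5 called), and under the other settings the 4 targets were called and no other member. Over all genes, 880 were called (333 higher, 547 lower), 1397 by DESeq2, 1339 without wildtype 5 and Atf4 null 1, and 527 to 1207 with 1 library left out. Scaling by library size alone gave 790 higher and 439 lower calls. It also called 1 HIF regulator (*Hif1an*) and 2 other hypoxia targets, against 4 in the main test, 7 without wildtype 5 and Atf4 null 1, and 2 to 5 with 1 library left out. VEGF genes called numbered 1 without those 2 libraries, 1 with the replicate block and 0 to 1 with 1 library left out, beside 0 in the main test. The paralog called (*P4ha3*) was lost, leaving 0, under library size alone, the minimum of 10 counts, the robust fit, the replicate block and without those 2 libraries, and 0 to 1 were called with 1 library left out. With 1 library left out, 0 HIF regulators were called.

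Same-numbered libraries of the 2 groups shared little deviation from their group means (correlations from -0.13 to 0.01). Because the numbers within wildtype are uncertain, these values cannot show whether samples were paired by litter, which was not tested. With the replicate block 852 genes and 4 members were called.

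The fitted log2 fold change of *Vhl* turned to 0.12 under library size alone and to 0.05, 0.00 and 0.14 without Atf4 null 1, wildtype 2 or wildtype 4 (with 1 library left out, -0.07 to 0.14). That of *Egln1* turned to 0.11 under library size alone and 0.06 without Atf4 null 3 (-0.08 to 0.06). The difference in mean log2 CPM of *Vhl* (0.02) turned to -0.02, -0.05 and -0.05 without Atf4 null 2, wildtype 1 or wildtype 5, and that of *Egln1* to 0.06 without Atf4 null 3 (-0.08 to 0.06). The cause was not tested. Precision is limited by 4 and 5 libraries.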

Other observations

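The genes whose log2 CPM followed 4 of the members most closely over the 9 libraries were sought among 9370 genes with a mean of at least 10 CPM, as a description that includes the difference between genotypes. *Ndrg1* was most like *Nlrc5* (r = 0.99), *Crygn*, a gamma-crystallin (r = 0.99), and *Amph* (r = 0.98). *Bnip3* was most like *Plcb1* (r = 0.98), *Mical3* (r = 0.98) and *Gstm1*, a glutathione S-transferase (r = 0.97). *Vegfa* was most like *Psd3* (r = 0.98), *Emilin2* (r = 0.96) and *Tacc1* (r = 0.96), and *Hif1a* most like *Mtmr7* (r = 0.98), *R3hdml* (r = 0.97) and *Slc7a8*, an amino acid transporter (r = 0.96).

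After the genotype means were subtracted, other genes came first for *Ndrg1* (*Rps27a*, *Rab10* and *Creld1*, r = 0.97 to 0.99) and for *Vegfa* (*Aig1*, *Lrch3* and *Irf2*, r = 0.92 to 0.96). *Mical3* remained among the 3 for *Bnip3* (r = 0.91, with *Akr1e1* at 0.92 and *Fbxw11* at 0.90). *Mtmr7* remained for *Hif1a* (r = 0.96, with *Smim10l2a* at 0.96 and *Prdx5* at 0.95). The libraries share depth and tissue makeup, and the part of these in the likeness was not tested.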
